A study of Mus musculus with 12 samples.

Results

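Fatty acid oxidation and its regulation by the nuclear receptor PPARA were followed in cultured mouse liver cells through a list of 34 genes. The list holds the receptor Ppara and its partner Creb3l3, the enzymes and carriers of mitochondrial oxidation, peroxisomal oxidation genes, acyl-CoA thioesterases, and lipid handling and other genes known to respond to PPARA. A gene counted as measured where at least 1 probe set (a group of short probes for 1 transcript) was annotated to its symbol alone, and its brightest probe set over all 12 arrays was used. This rule gave 32 measured members among 18193 measured genes, 14 of them among the 15 listed mitochondrial members. Those are the entry steps into the mitochondrion, the enzymes of chain shortening there, and Decr1, Eci1, Eci2 and Ech1, which act on unsaturated chains. The last group was counted as mitochondrial as a whole, and any peroxisomal part of it was not separated. Acsl1, which activates long-chain fatty acids, and Ucp2, a mitochondrial carrier, had no such probe set and were not analysed here.

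Fatty acids enter the mitochondrion as carnitine esters, through Cpt1a on the outer membrane, the carrier Slc25a20 and Cpt2 on the inner membrane, and are then shortened stepwise by dehydrogenation, hydration, a further dehydrogenation and thiolysis. Very long and branched chains are first shortened in peroxisomes. PPARA, bound by fatty acids and paired with the retinoid X receptor, raises many of these genes in the liver during fasting, and TCDD, a dioxin, is a lasting ligand of a different receptor, the aryl hydrocarbon receptor AHR, that is known for fatty liver in mice.

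RNA came from primary hepatocytes, each array from 1 mouse, with 3 arrays in each of 4 groups. The human AHR mice were B6.Cg with the Ahrtm3.1Bra allele of the mouse gene and the transgenes Alb-cre and Ttr-AHR of line 1Ghp, which act from the albumin and transthyretin promoters and so mainly in hepatocytes. The wild type mice were C57BL6/J. Cells of each genotype received 10 nM TCDD or its DMSO vehicle for 6 h after 48 h of culture. All 4 groups had been kept in medium with 2.5% DMSO and 10 nM dexamethasone, a glucocorticoid, so the vehicle cells were not free of either, and other cell types of the liver reach such a culture only as carry-over. Age and sex are not given in the labels used here. Signals are array intensities rescaled to a common trimmed mean of 150, and log2 differences were taken after adding an offset of 16, which understates differences of dim genes.

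The response to TCDD itself was visible in both genotypes. Tiparp, a known AHR target, had signals of 3538, 3609 and 3479 with TCDD and 1327, 1403 and 1342 with vehicle in human AHR cells, and 2575, 3324 and 2534 with TCDD and 1402, 911 and 1098 with vehicle in wild type cells. Its log2 signal rose by 1.37 with the human receptor and by 1.30 with the mouse receptor (limma, adjusted p = 0.00537 and 0.0192). The wild type call of Tiparp, the single gene called there, held in 7 of 22 alternative settings, with a log2 difference of 1.03 to 1.47 and an adjusted p of 0.00603 to 0.986 over them (limma), and was lost without both wild type arrays numbered 2 (1.03, adjusted p = 0.145). In human AHR cells its call held in 17 of 22, with an adjusted p of at most 0.0618. Cyp1a1, the classical AHR target, rose by 6.09 in human AHR cells (limma, adjusted p = 0.0424, a call that held in 9 of the 22 settings at a difference of 5.60 to 6.37), while its 3.00 in wild type cells did not pass (adjusted p = 0.966), with 125, 2518 and 64.9 on the TCDD arrays. Mouse Ahr had 225, 193 and 216 with TCDD and 224, 193 and 236 with vehicle in human AHR cells, and 243, 442 and 223 with TCDD and 261, 617 and 245 with vehicle in wild type cells. The labels do not say where its probes lie relative to the part of the mouse gene that Cre removes, so these signals do not check the genotype label. The hepatocyte markers, 7 of 8 measured, had group means above the offset in all 4 groups, with summed signals between 43640 and 58250 per array.

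Both wild type arrays numbered 2 stood apart. They had Xist signals of 2952 with TCDD and 3085 with vehicle, against at most 29.3 on the other 10 arrays, and Eif2s3y signals of 0.42 and 4.7, against at least 452.7 elsewhere. Xist is the X-inactivation RNA and Eif2s3y a Y-linked gene. Sign counts over all 32 members are therefore also given without this pair of arrays where they rest on wild type cells. So are the TCDD values of members whose wild type signals are listed by array.

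Promoter sequences are shown for 3 members whose values are followed in detail below, because AHR with its partner ARNT binds DNA elements built around the core letters GCGTG. The sequences run from 250 bases before to 50 bases after the RefSeq start of the gene (build GRCm38.p6), written on the gene's strand, with GCGTG or its reverse complement CACGC in capitals. Pdk4 lies at chr6:5496229-5496528 on the minus strand, Ppara at chr15:85735526-85735825 on the plus strand and Cpt1a at chr19:3323051-3323350 on the plus strand.
Pdk4: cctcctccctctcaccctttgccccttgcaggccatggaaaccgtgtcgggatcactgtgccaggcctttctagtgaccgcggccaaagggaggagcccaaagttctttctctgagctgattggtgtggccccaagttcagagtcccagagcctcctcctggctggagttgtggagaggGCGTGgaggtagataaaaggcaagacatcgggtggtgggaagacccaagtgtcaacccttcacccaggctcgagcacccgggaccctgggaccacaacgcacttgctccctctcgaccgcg
Ppara: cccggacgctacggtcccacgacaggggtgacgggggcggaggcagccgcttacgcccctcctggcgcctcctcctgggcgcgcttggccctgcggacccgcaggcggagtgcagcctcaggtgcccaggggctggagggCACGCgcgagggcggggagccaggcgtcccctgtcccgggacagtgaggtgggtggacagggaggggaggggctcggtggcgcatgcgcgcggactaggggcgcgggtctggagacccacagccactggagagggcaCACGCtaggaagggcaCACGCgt
Cpt1a: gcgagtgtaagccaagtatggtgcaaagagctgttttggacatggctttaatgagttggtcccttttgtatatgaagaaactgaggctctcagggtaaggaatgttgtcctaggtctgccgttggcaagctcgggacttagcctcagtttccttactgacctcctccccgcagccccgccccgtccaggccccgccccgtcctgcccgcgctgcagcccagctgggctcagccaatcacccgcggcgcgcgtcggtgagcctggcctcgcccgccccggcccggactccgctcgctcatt
The Pdk4 window held the core 1 time on the gene's strand, the Ppara window held it 3 times on the opposite strand, and these letters are not in the Cpt1a window. Of 29 members with an entry in the table, 14 (48.3%) held the core on either strand, against 9500 of 27025 genes of the table (35.2%). The 29 and the 14 both include Acsl1 and Ucp2, which had no usable probe set and no measured value. The core matches are a description of the letters in these windows.

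None of the 32 measured members passed the test for TCDD in either genotype (limma, Benjamini-Hochberg adjustment over all genes). The smallest adjusted p among them was 1.0 in human AHR cells, where 0.022% of all genes were called, and 0.966 in wild type cells, where 0.0055% were called. With 1 mean per group, the count at an unadjusted p under 0.05 was also 0 in each genotype, beside 2.9% of all genes in human AHR cells and 4.18% in wild type cells. SAM, the test that the design text names, called no member either. In human AHR cells 14 members had a positive and 18 a negative TCDD value, with a median log2 difference of -0.03, while 53.1% of all genes were negative with a median of -0.01. Among wild type values 12 were positive and 20 negative with a median of -0.16, while 44.3% of all genes were negative with a median of 0.03. No member's TCDD arrays lay all above or all below the vehicle arrays in human AHR cells, where 3.34% of all genes did so above and 3.85% below. In wild type cells 1 member, Plin2, lay all below and none all above, beside 2.82% and 6.18% of all genes.

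The wild type count rested on which arrays were kept. Without wild type TCDD replicate 2, 15 of the 32 members had an unadjusted p under 0.05 for TCDD in wild type cells, beside 10.7% of all genes, and still none was called, with a smallest adjusted p of 0.454 (limma). That setting keeps the vehicle array numbered 2, which had the Xist signal, while its TCDD counterpart is left out. Ppara was then at -0.97, Cpt1a at -0.58 and Vnn1 at -1.16, while Pdk4 was at 1.11, Fabp1 at 1.12 and Acaa1b at 1.399. Without both wild type arrays numbered 2, the count was 6 of 32 members, beside 5.89% of all genes, with a smallest adjusted p of 0.78 (limma), and 19 members were negative at a median of -0.20, in place of 20 at -0.16. By role, the values without this pair ranged between -0.52 and -0.38 for the entry steps, -0.29 and 0.12 for the spiral, -0.43 and 0.13 for the auxiliary enzymes, -0.27 and 0.76 for peroxisomal members, and 0.01 and 0.72 for the thioesterases. For the difference of the 2 TCDD effects the same settings gave 6 and 4 members, beside 5.89% and 4.03% of all genes, again with none called.

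**Figure D1:**
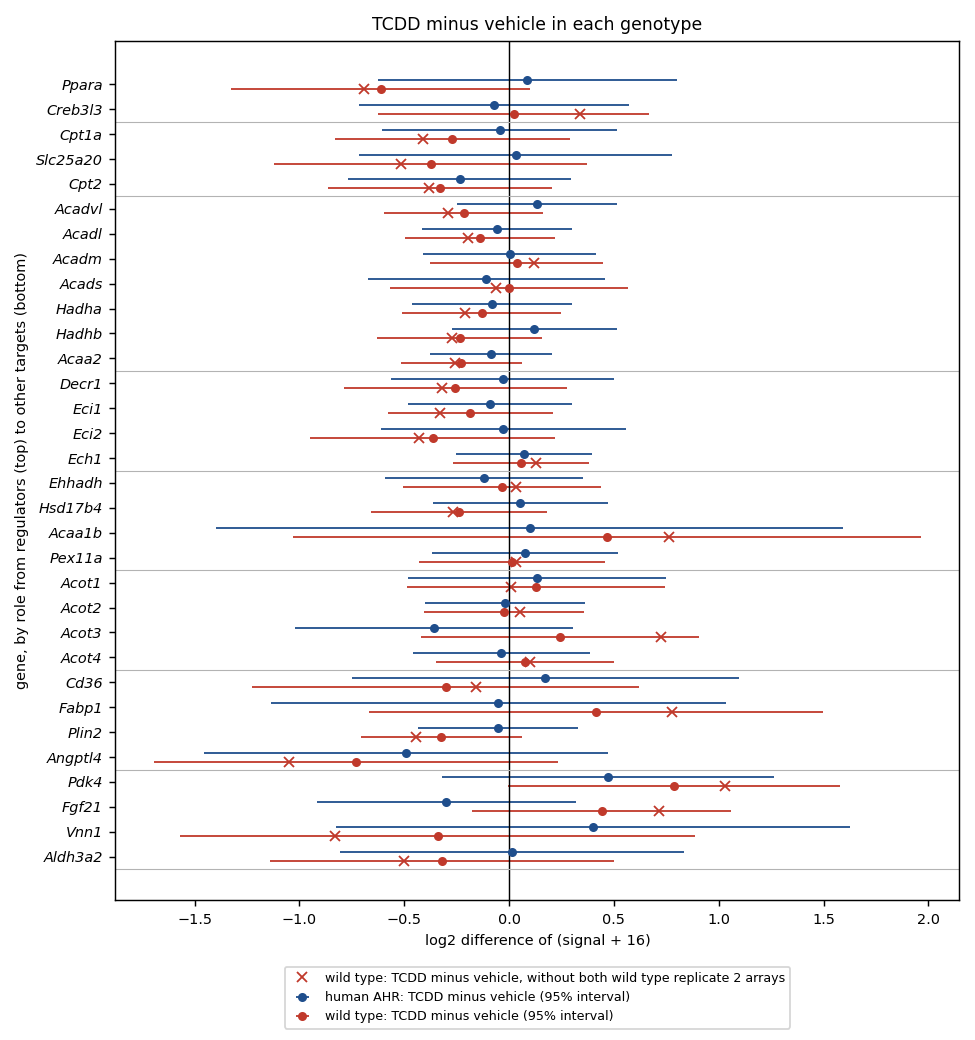
Log2 difference of TCDD minus vehicle for each of the 32 measured members, human AHR cells in blue above wild type cells in red, with 95% confidence intervals from limma, genes ordered by role from regulators to other targets. Crosses give the wild type values without both wild type arrays numbered 2. The intervals of all members include 0 in both genotypes, and their half-widths range between 0.29 and 1.5.

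The intervals show what these 3 arrays per group could resolve. Half-widths of the 95% interval had a median of 0.547 on the log2 scale within a genotype, the narrowest being 0.29 and the widest 1.5. The difference of the 2 TCDD effects, human AHR minus wild type, was positive for 22 members and negative for 10 with a median of 0.09, and 0 members passed (0% of all genes called). At an unadjusted p under 0.05 the count was again 0, beside 3.14% of all genes, and half-widths reached 2.12. Without both wild type arrays numbered 2, this difference was positive for 20 members and negative for 12, at a median of 0.14. Since all group comparisons draw on the same 4 groups, their values are not independent of each other.

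Among the regulators, Ppara itself had TCDD signals of 248, 193 and 278 in human AHR cells, against 223, 176 and 280.4 with vehicle. In wild type cells it had 183, 338 and 123 with TCDD and 204, 468 and 312 with vehicle. The groups overlapped in both genotypes. Its log2 difference was 0.09 in human AHR cells (95% interval -0.63 to 0.80) and -0.61 in wild type cells (95% interval -1.33 to 0.10, limma adjusted p = 0.966). The wild type value was -0.30 without TCDD replicate 3 and -0.69 without both arrays numbered 2. Its other probe sets gave -0.23 and -0.40 in human AHR cells, opposite in sign to the brightest set, and -0.76 and -0.22 in wild type cells. Creb3l3, a liver transcription factor that works with PPARA on fasting genes, gave -0.07 in human AHR cells and 0.02 in wild type cells.

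For the 3 measured carnitine entry steps, the brightest probe sets were near 0 in human AHR cells for Cpt1a and Slc25a20. Cpt2 was below 0 there, and all 3 were below 0 in wild type cells, in neither genotype beyond error. Dimmer sets gave -0.35 and -0.22 for Cpt1a and -0.27 for Slc25a20 in human AHR cells. The same sets gave -0.28, -0.13 and -0.29 in wild type cells. Cpt1a had 859.8, 777 and 1129 with TCDD, against 935, 861 and 1032 with vehicle, in human AHR cells. Its wild type signals were 1091, 1623 and 668 with TCDD and 1083, 1616 and 1200 with vehicle. The wild type groups overlapped, and the TCDD array numbered 3 was the lowest. The log2 difference was -0.05 in human AHR cells and -0.27 in wild type cells (95% interval -0.83 to 0.29), and the wild type value was 0.05 without TCDD replicate 3 and -0.41 without both arrays numbered 2. Slc25a20 had 618, 288 and 537 with TCDD and 557, 328 and 491 with vehicle in human AHR cells, a log2 difference of 0.03. The wild type arrays had 429.5, 745 and 294.5 with TCDD and 427, 796 and 622.5 with vehicle, a log2 difference of -0.37 (95% interval -1.12 to 0.37), which was -0.07 without TCDD replicate 3 and -0.52 without both arrays numbered 2. For this carrier the array numbered 2 was the lowest human AHR array and the highest wild type array under either treatment. Cpt2 gave -0.24 in human AHR cells and -0.33 in wild type cells. The wild type value was -0.06 without TCDD replicate 3, -0.38 without both arrays numbered 2 and 0.07 as the mean over probe sets, since a dimmer probe set of Cpt2 gave 0.24 in human AHR cells and 0.46 in wild type cells, opposite in sign to the one used.

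The enzymes of the mitochondrial spiral had small TCDD values of either sign. Acadvl, Acadl, Acadm and Acads are the acyl-CoA dehydrogenases for very long, long, medium and short chains, Hadha and Hadhb the subunits of the trifunctional protein, and Acaa2 a thiolase. Their 7 TCDD values ranged between -0.11 and 0.13 in human AHR cells and between -0.24 and 0.04 in wild type cells. Hadhb had 1279, 1054 and 1556 with TCDD and 1283, 1014 and 1249 with vehicle in human AHR cells, a difference of 0.12. Its wild type signals were 1250.0, 1580.0 and 1040.0 with TCDD, against 1354, 1771 and 1409 with vehicle, a difference of -0.24 (95% interval -0.63 to 0.16). The groups overlapped, and the wild type value was -0.27 without both arrays numbered 2. Acaa2 had the tightest interval of all members, -0.09 in human AHR cells (95% interval -0.38 to 0.20) and -0.23 in wild type cells (95% interval -0.52 to 0.06). Acadm, with 3077, 3980.0 and 4403 on the TCDD arrays and 3271, 3852 and 4260.0 on the vehicle arrays of human AHR cells, gave 0.00, and in wild type cells it gave 0.04.

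Decr1, Eci1, Eci2 and Ech1 handle the bonds of unsaturated fatty acids. They lay between -0.09 and 0.07 in human AHR cells and between -0.36 and 0.06 in wild type cells. Eci2 had 487, 409 and 518 with TCDD and 496, 423 and 524 with vehicle in human AHR cells, a difference of -0.03 with each TCDD array slightly below its vehicle partner by number. Wild type cells had 424, 712 and 299 with TCDD and 487, 842 and 484 with vehicle, a difference of -0.36 (95% interval -0.95 to 0.22), which was -0.08 without TCDD replicate 3 and -0.43 without both arrays numbered 2.

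Peroxisomal members showed no common direction. Ehhadh, the peroxisomal bifunctional enzyme, gave -0.12 in human AHR cells and -0.04 in wild type cells, and Hsd17b4, the multifunctional enzyme of branched and very long chains, gave 0.05 and -0.24. Pex11a, a factor of peroxisome division, gave 0.08 in human AHR cells and 0.01 in wild type cells. Acaa1b, a peroxisomal thiolase, had the widest intervals. It had 304, 634 and 345 with TCDD and 279, 452 and 428 with vehicle in human AHR cells, against a wild type spread of 1147, 172 and 1449 with TCDD and 1151, 188 and 492 with vehicle. The array numbered 2 was the lowest wild type array under either treatment and the highest human AHR array under either treatment. The TCDD difference was 0.10 in human AHR cells and 0.47 in wild type cells, with a 95% interval of -1.03 to 1.97 in the wild type, where it was -0.08 without TCDD replicate 3 and 0.76 without both arrays numbered 2. A pair of probe sets that match both Acaa1b and its near copy Acaa1a gave 0.05 and -0.04 in human AHR cells and 0.02 and -0.04 in wild type cells, so Acaa1b should be read as uncertain.

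The acyl-CoA thioesterases Acot1, Acot2, Acot3 and Acot4, which release free fatty acids from their CoA esters and are near copies of each other, ranged between -0.36 and 0.13 in human AHR cells and between -0.03 and 0.24 in wild type cells. Acot3, with group means of 8.33 with TCDD and 15.7 with vehicle in human AHR cells, and of 16.9 with TCDD and 13.0 with vehicle in wild type cells, was near or below the offset. A probe set that matches Acot1 and Acot2 together gave 0.17 in human AHR cells and 0.23 in wild type cells.

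Of the uptake and storage genes, Angptl4 had the lowest TCDD values. Angptl4, a secreted inhibitor of lipoprotein lipase, had 522, 821 and 1091 with TCDD and 828, 1019 and 1572 with vehicle in human AHR cells. Wild type cells had 1231, 1502 and 331 with TCDD, against 1524, 1602 and 1189 with vehicle. The groups overlapped in both genotypes. The log2 difference was -0.49 in human AHR cells (95% interval -1.46 to 0.47) and -0.73 in wild type cells (95% interval -1.70 to 0.23), and the wild type value was -0.07 without TCDD replicate 3, -1.13 without TCDD replicate 2 and -1.05 without both arrays numbered 2. Plin2, the coat protein of lipid droplets, had 4136, 4748 and 5529 with TCDD and 4566, 4703 and 5658 with vehicle in human AHR cells, a difference of -0.05. Its wild type signals were 5295, 5233 and 3367 with TCDD, all below the 5820.0, 5543 and 5669 with vehicle, a difference of -0.32 (limma, adjusted p = 0.966) that became -0.11 without replicate 3 of the TCDD arrays and -0.44 without both arrays numbered 2. Fabp1, the liver fatty acid binding protein, had 4528, 5713 and 3707 with TCDD and 3778, 5267 and 5360.0 with vehicle in human AHR cells, a difference of -0.05. The wild type signals were 4194, 1496 and 10020.0 with TCDD and 3972, 1858 and 3595 with vehicle, and the difference of 0.41 became -0.25 without TCDD replicate 3 and 0.78 without both arrays numbered 2. Cd36, a fatty acid transporter of the cell surface, gave 0.17 and -0.30 at signals between 6.4 and 82.3.

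Pdk4 was the member with the highest TCDD values in both genotypes. Pdk4 phosphorylates and so inactivates pyruvate dehydrogenase, which spares glucose when fat is burnt. In human AHR cells it had 110.1, 216 and 207 with TCDD and 86.8, 182 and 105 with vehicle. The wild type arrays had 235, 106 and 214 with TCDD and 158, 82.9 and 63.3 with vehicle. The groups overlapped in both genotypes. The log2 difference was 0.47 in human AHR cells (95% interval -0.32 to 1.26) and 0.79 in wild type cells (95% interval -0.01 to 1.58, limma adjusted p = 0.966), and the wild type value was 0.66 without TCDD replicate 3 and 1.03 without both arrays numbered 2. Fgf21, the fasting hormone of the liver, was near background with signals between 1.8 and 26.6 in all groups, and gave -0.30 and 0.44. Vnn1, a pantetheinase, gave 0.40 in human AHR cells and -0.34 in wild type cells. Its wild type value was 0.35 without TCDD replicate 3 and -0.83 without both arrays numbered 2. Aldh3a2, the fatty aldehyde dehydrogenase, gave 0.01 in human AHR cells and -0.32 in wild type cells. In the same 2 settings its wild type value was -0.06 and -0.50.

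Averaged over both genotypes, 10 members had positive and 22 negative TCDD values, with a median of -0.06, while 48.1% of all genes were negative. No member was called (0.022% of all genes were), and 1 member had an unadjusted p under 0.05 (3.55% of all genes had). That member was Pdk4, at 0.63 (95% interval 0.07 to 1.19, limma, adjusted p = 0.997), followed by Angptl4 at -0.61 (limma, adjusted p = 0.997). Without both wild type arrays numbered 2, Pdk4 was at 0.75 and Angptl4 at -0.77 (limma, adjusted p = 0.94 for each). In that setting 13 members were positive and 19 negative, at a median of -0.08.

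**Figure D2:**
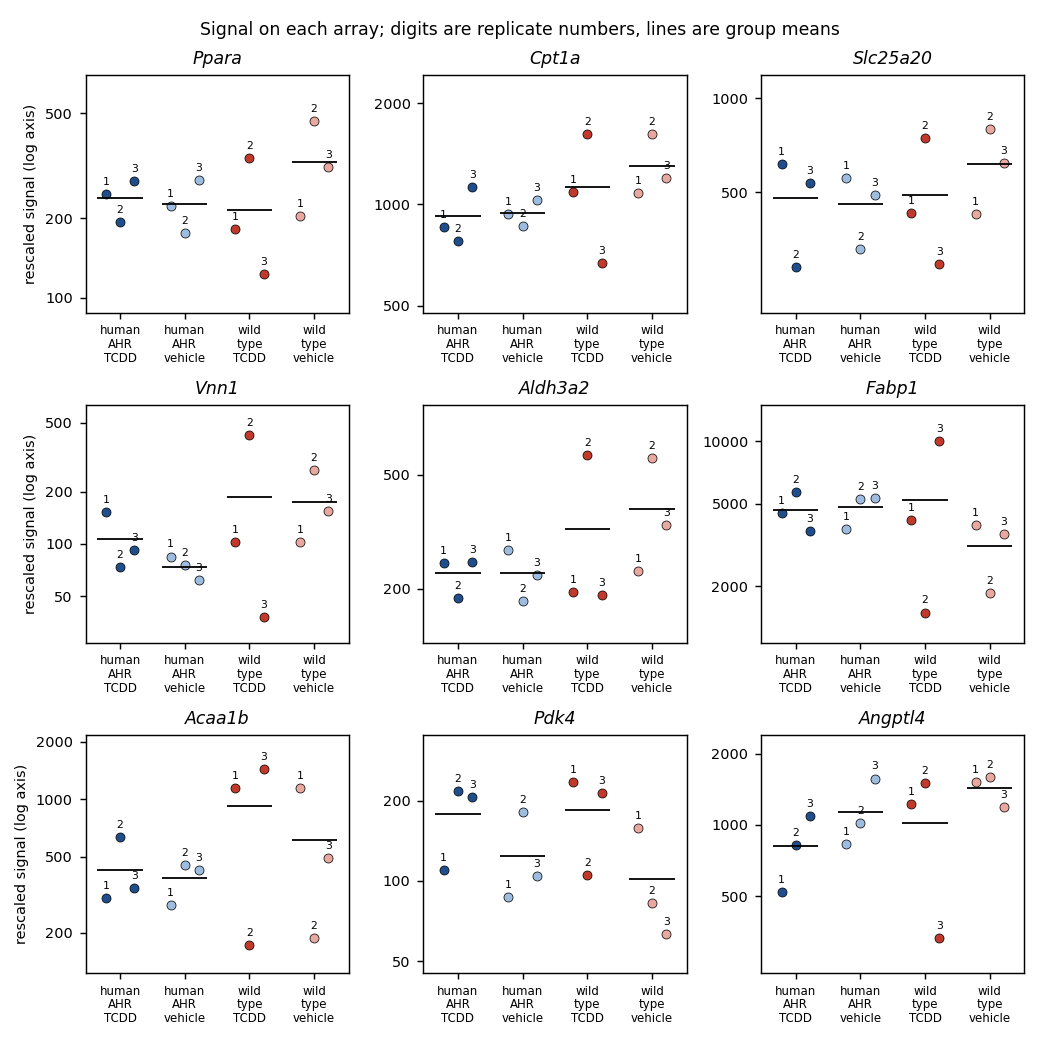
Rescaled signal on a log axis for 9 members on every array, with the groups from left to right human AHR TCDD, human AHR vehicle, wild type TCDD and wild type vehicle. Digits are replicate numbers and lines are group means of 3 arrays. Both wild type arrays numbered 2 are the highest of their groups for Ppara, Cpt1a, Slc25a20, Vnn1 and Aldh3a2 and the lowest for Fabp1 and Acaa1b.

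Between the genotypes under vehicle, most members had values below 0, but none passed the test. Of the 32 members, 26 had a negative and 6 a positive value for human AHR minus wild type, with a median of -0.21, while 44.9% of all genes were negative. No member was called (0.0055% of all genes were) or had an unadjusted p under 0.05 (4.23% of all genes had). In 3 members, Cpt1a, Hadhb and Vnn1, every human AHR array lay below every wild type array, as for 4.4% of all genes, and in none above, as for 6.21%. Vnn1 had vehicle signals of 84.5, 75.2 and 61.9 in human AHR cells and 102.2, 266 and 154 in wild type cells, a log2 difference of -0.995 (95% interval -2.22 to 0.23, limma adjusted p = 0.965). Cpt1a, with the vehicle signals given above, had -0.44 (95% interval -1.001 to 0.12, limma adjusted p = 0.965) and Hadhb -0.35 (95% interval -0.74 to 0.05). Without both wild type arrays numbered 2 the values were -0.66 for Vnn1, -0.27 for Cpt1a and -0.23 for Hadhb.

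The mitochondrial members carried much of that count, since 13 of 14 were negative under vehicle with a median of -0.25. By role, 3 of 3 entry steps, 6 of 7 spiral enzymes and 4 of 4 enzymes of unsaturated chains were negative. Acadm was the exception, at 0.10. Without both wild type arrays numbered 2, 11 of the 14 were negative at a median of -0.11, and 22 of the 32 members were still negative, at a median of -0.05 in place of -0.21. Kupffer cell markers, the genes of liver macrophages, had positive values in the same comparison for 8 of 8 genes, with a median log2 difference of 1.27. Of these, 5 had an unadjusted p under 0.05 but 0 were called. In 1 of the 8 every human AHR array lay above every wild type array, beside 6.21% of all genes. The summed signals of these markers, which follow the brightest of them, ranged between 2099 and 4437 in human AHR cells. In wild type cells the sums ranged between 1922 and 3421, and Clec4f, Cd5l, Marco and C1qa had means under the offset. The part of these cells in the members' values was not tested, and in such bulk RNA fewer cells of a type and less RNA per cell cannot be told apart.

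With TCDD the count between genotypes was less one-sided. There 20 members were negative and 12 positive for human AHR minus wild type, with a median of -0.11, 52.4% of all genes being negative, and the 14 mitochondrial members split 7 and 7 at a median of 0.00. No member was called (0% of all genes were) and none had an unadjusted p under 0.05 (4.11% of all genes had). No member's groups were free of overlap, beside 3.23% of all genes with every human AHR array above and 4.86% below. Without both wild type arrays numbered 2, 12 of 32 members were negative and the median was 0.09, so the majority turned. Of the Kupffer markers 7 of 8 were positive, with a median of 1.16, and 4 had an unadjusted p under 0.05 but 0 were called. In 6 of the 8 every human AHR array lay above every wild type array, and in 0 below. Their summed signals ranged between 1897 and 4122 in human AHR cells and between 1861 and 4157 in wild type cells. In the wild type TCDD cells Cd5l, Marco, C1qa and C1qb had means under the offset.

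**Figure D3:**
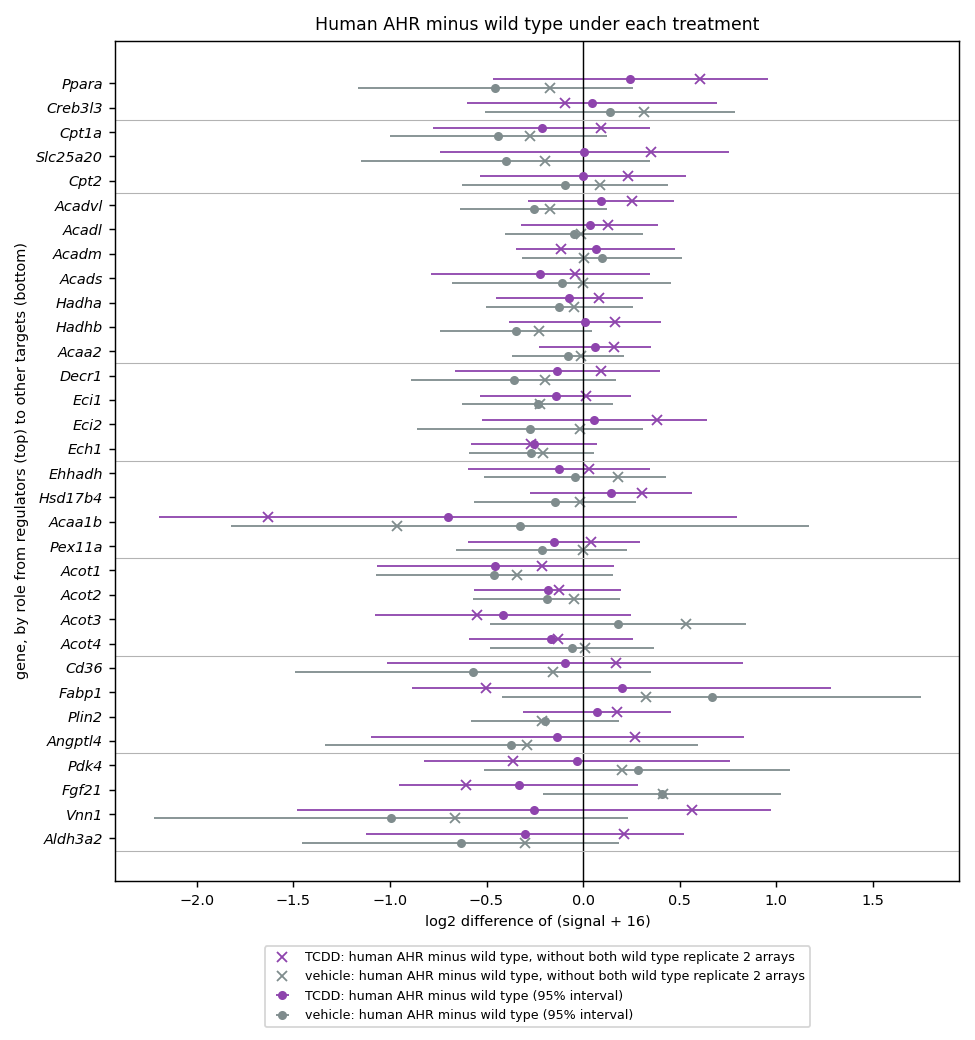
Log2 difference of human AHR minus wild type for each measured member, with TCDD in purple above vehicle in grey, with 95% confidence intervals from limma. Of 32 members, 26 lie below 0 under vehicle and 20 with TCDD, and all intervals include 0.

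The mitochondrial members shared an ordering by array. Among the 14, wild type replicate 2 was the highest array of its group for 11 with TCDD and for 12 with vehicle, whereas over all genes that array was the highest for 36.8% with TCDD and for 33.0% with vehicle. In human AHR cells the array numbered 2 was instead the lowest, for 13 of 14 members with TCDD and for 13 of 14 with vehicle, beside 35.6% and 33.4% of all genes. Human AHR replicate 3 was the highest for 12 with TCDD and for 8 with vehicle, beside 36.7% and 40.3% of all genes. Wild type TCDD replicate 3 was the lowest of its group for 10, beside 37.1% of all genes.

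Expressed as the deviation from each gene's mean over all 12 arrays, the median over the mitochondrial members was -0.11, -0.31 and 0.13 on the human AHR TCDD arrays and 0.02, -0.25 and 0.04 on the human AHR vehicle arrays. It was -0.07, 0.30 and -0.35 on the wild type TCDD arrays and 0.05, 0.31 and 0.11 on the wild type vehicle arrays. The highest and lowest array medians were thus both on wild type arrays, the highest on vehicle replicate 2 and the lowest on TCDD replicate 3.

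**Figure D4:**
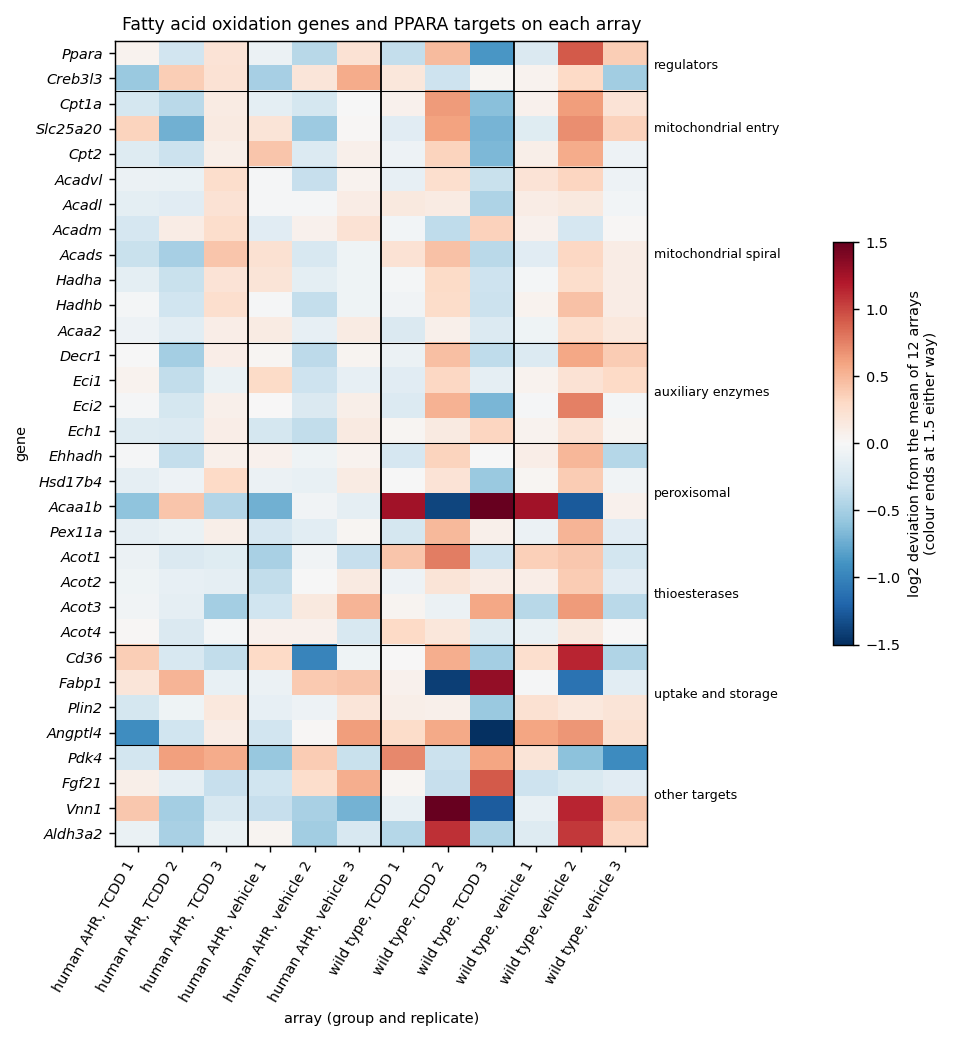
Deviation of log2 signal from each member's mean over 12 arrays, one row per measured member by role and one column per array in 4 groups of 3. The columns of wild type replicate 2 are mostly raised and those of human AHR replicate 2 mostly lowered across the mitochondrial rows.

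**Figure D5:**
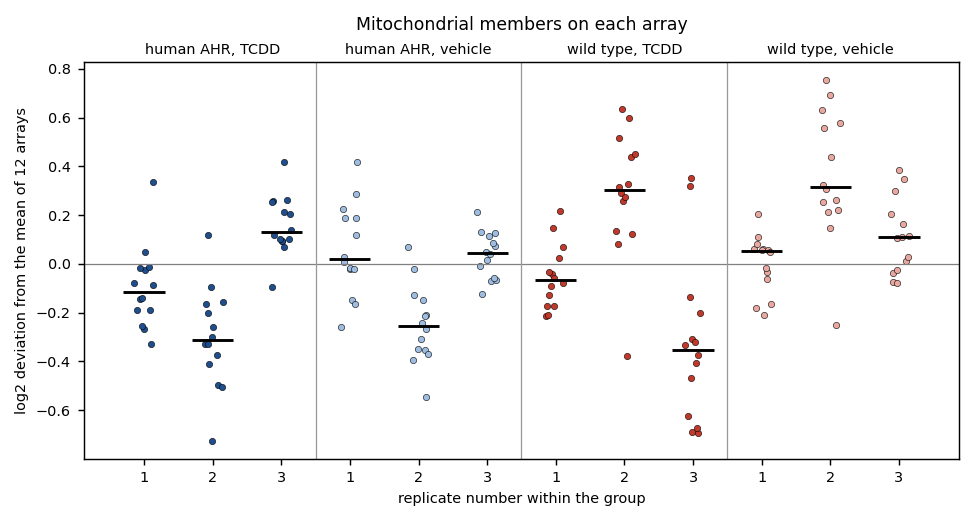
Deviation of each of the 14 measured mitochondrial members from its mean over 12 arrays, by array, on a log2 axis. Wild type replicate 2 lies highest with medians of 0.30 with TCDD and 0.31 with vehicle, and wild type TCDD replicate 3 lies lowest with a median of -0.35.

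Arrays of 1 group scattered more in wild type cells than in human AHR cells when all arrays were kept, and both wild type arrays numbered 2 are part of that spread. The pooled within-group SD of the 32 members had a median of 0.243 (log2) in human AHR cells and of 0.403 in wild type cells. It was larger in wild type cells for 28 of 32 members (87.5%), against 57.4% of all genes. Without both wild type arrays numbered 2, which leaves 2 arrays in each wild type group, the wild type median was 0.301 and the SD was larger in wild type cells for 19 of 32 members (59.4%), against 48.8% of all genes. For the mitochondrial members this was so for 5 of 14 without the pair and for 11 of 14 with it. Fabp1 had an SD of 0.298 in human AHR cells and 1.05 in wild type cells, which was 0.631 without the pair, and Acaa1b had 0.465 in human AHR cells and 1.45 in wild type cells, which was 0.622 without it.

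Vnn1 and Aldh3a2 were high on both wild type arrays numbered 2, as Acaa1b and Fabp1 were low there. Vnn1 had TCDD signals of 153, 73.8 and 91.9 in human AHR cells and 102.4, 422 and 37.6 in wild type cells. Aldh3a2 had 247, 186 and 248 with TCDD and 273, 181 and 224 with vehicle in human AHR cells. Wild type signals of Aldh3a2 were 194, 587 and 190.3 with TCDD and 232, 572 and 335 with vehicle. For both genes the wild type arrays numbered 2 exceeded all other arrays of their treatment, the same arrays that had the Xist signal. The part of sex in these values was not tested.

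Other genes of the pathway, 70 listed and 63 measured, gave the same absence of calls. None passed in any of the 6 comparisons, and at an unadjusted p under 0.05 there were 2 for TCDD in human AHR cells, 2 in wild type cells, 2 for the difference of the effects, 4 between genotypes under vehicle, 0 between genotypes with TCDD and 4 for TCDD averaged over genotypes. In the same order 2.9%, 4.18%, 3.14%, 4.23%, 4.11% and 3.55% of all genes had such a p. For TCDD in human AHR cells 44 of the 63 were positive and 19 negative at a median of 0.08, with 14 of 15 further mitochondrial genes positive, while 18 of the 32 members were negative. For TCDD in wild type cells 33 were positive and 30 negative at a median of 0.01, with 4 of the 15 positive. Lpin2, a phosphatidate phosphatase, had 813, 1104 and 1458 with TCDD and 690.0, 702 and 773 with vehicle in human AHR cells, and 776, 1583 and 744 with TCDD and 562, 779 and 500 with vehicle in wild type cells. The groups overlapped in wild type cells but not in human AHR cells. Its averaged log2 difference was 0.63 (95% interval 0.22 to 1.05, limma, adjusted p = 0.997). In human AHR cells 5 of the 63 had every TCDD array above every vehicle array and 1 had every one below, beside 3.34% and 3.85% of all genes. Plin4, a droplet protein, gave 1.11 in human AHR cells (limma, adjusted p = 1.0) at signals of 27.5, 21.6 and 33.7 with TCDD and 4.3, 2.6 and 5.2 with vehicle, where the vehicle signals lay under the offset.

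Under vehicle, Cyp4a14, a microsomal fatty acid hydroxylase and well-known PPARA target, had 41.1, 33.9 and 38.0 in human AHR cells and 109, 294 and 62.2 in wild type cells, with no overlap between the groups. The log2 difference was -1.43 (95% interval -2.59 to -0.27, limma, adjusted p = 0.965). Decr2, a peroxisomal reductase of unsaturated chains, had 197, 161 and 166 in human AHR cells and 211, 312 and 253 in wild type cells, again without overlap, a log2 difference of -0.52 (limma, adjusted p = 0.965). Hadh, the short-chain hydroxyacyl-CoA dehydrogenase, had 2776, 2553 and 3255 in human AHR cells and 3410.0, 4721 and 3730.0 in wild type cells, also without overlap, a difference of -0.46 (limma, adjusted p = 0.965). All 3 genes had their highest vehicle signal on wild type replicate 2. Of the 63, 9 had every human AHR array below every wild type array and 1 had every one above, beside 4.4% and 6.21% of all genes. Of the 63, 18 were positive and 45 negative in this comparison at a median of -0.15, while 44.9% of all genes were negative, and with TCDD 19 were positive and 44 negative at a median of -0.08, while 52.4% of all genes were negative.

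Where a member had more than 1 probe set of its own, the dimmer ones were compared with the one used. The 21 dimmer probe sets of 16 members had the sign of the brightest in 10 cases for TCDD in human AHR cells, in 18 for TCDD in wild type cells, in 18 between genotypes under vehicle and in 14 between genotypes with TCDD. Hadhb had a dimmer set at -0.51 for TCDD in wild type cells, beside -0.24 for the set used, Cpt1a had sets at -0.28 and -0.13 beside -0.27, and Cpt2 had a set at 0.46 beside -0.33, the opposite sign.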

How the data were processed

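The 12 Affymetrix arrays of primary mouse hepatocyte RNA held 45101 probe sets. Per the submitters' processing notes, and as the design text also says, the authors made the deposited intensities with PLIER (Affymetrix Expression Console 1.1), and they tested the groups with SAM. The deposited values had a 2% trimmed mean of 150 on 9 arrays and 500 on the 3 wild type TCDD arrays, so every array was rescaled to 150. Any further processing difference of those 3 arrays cannot be told apart from their group. After rescaling, the array medians were 20.28 to 21.87 on them, 18.1 to 19 with wild type vehicle and 16.5 to 23.5 in human AHR cells. Differences were taken on a log2 scale computed here from the deposited intensities plus 16. Probe sets that named 1 symbol (34945, after 64 controls were removed) gave 18193 genes, each by its brightest set.

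The model was fitted with limma 3.58.1 (R 4.3.3) as 4 group means on 12 arrays, leaving 8 residual degrees of freedom, and moderated by eBayes with a trend on intensity. All tests were two-sided, with Benjamini-Hochberg adjustment over all genes and a threshold of 0.05. The fit was tested on simulated data. The p values measure the spread between arrays of a group, each taken as a different mouse as the design text gives. Deviations from the group means of same-numbered TCDD and vehicle arrays had an r of 0.235, 0.265 and 0.188 in human AHR cells and 0.251, 0.507 and 0.048 in wild type cells. Wild type TCDD array 3 had a higher r with vehicle array 1 (0.282) than with vehicle array 3. The design text gives no pairing, and only in human AHR cells did every r exceed the bound of 0.1 set for pairing. The fit reported took no arrays as paired, and the replicate number was a block in an alternative fit of both genotypes. The correlations of whole arrays within a group were 0.958 to 0.985, and 0 pairs were identical. The number of arrays limits the precision.

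All listed members were accounted for. Outside them, the 2 genes of each further list with the smallest p in a comparison could be named, besides Cyp1a1, Tiparp, Ahr, Xist and Eif2s3y. The members and lists were chosen with earlier results of these data known. Promoters came from RefSeq. Alternatives covered the offset, the scaling, dim genes, the fit, probe sets, a replicate block, SAM over 20 relabellings and leaving out arrays. Plots used matplotlib 3.10.9 (Python 3.11.15).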

Additional observations from a re-analysis of the deposited data

How the results depend on the processing

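No member was called under any of 22 alternative settings, in 128 combinations of comparison and setting, and the smallest adjusted p among members was 0.454 (limma, TCDD in wild type cells without TCDD replicate 2, where 15 of 32 members had an unadjusted p under 0.05). The counts of all genes called were small and moved with the setting. For TCDD in wild type cells, 1 gene (Tiparp) was called, and 0 with a shared median, without the intensity trend, with only the arrays compared, with both wild type replicate 2 arrays left out and with SAM over 20 relabellings, and leaving out 1 array gave 0 to 1. For TCDD in human AHR cells, 4 were called, 2 with quantile normalization, 2 without the trend, 1 with the mean over probe sets and 7 with SAM, and leaving out 1 array gave 0 to 6. For the difference of the effects, 0 were called, 1 with both wild type replicate 2 arrays left out, and leaving out 1 array gave 0 to 1. Between genotypes under vehicle, 1 was called, 2 with an offset of 50, 0 without the trend and 2 with the mean over probe sets, and leaving out 1 array gave 0 to 2. Between genotypes with TCDD, 0 were called, 1 with the mean over probe sets and 2 without both wild type replicate 2 arrays, and leaving out 1 array gave 0 to 1. For TCDD averaged over genotypes, 4 were called and 1 with the mean over probe sets, and leaving out 1 array gave 2 to 5. The cause was not tested. With the replicate block, limma called 5 genes for TCDD in human AHR cells, 1 in wild type cells, 0 for the difference and 6 averaged, and no call of a member changed. The gene called in wild type cells was then not Tiparp, which had an adjusted p of 0.102 (limma). With this block, 0 of 32 members in human AHR cells had an unadjusted p under 0.05 (4.06% of all genes), 8 in wild type cells (7.56%), 3 for the difference (4.73%) and 5 averaged (5.95%), where the adjusted p was 0.646 for Pdk4 and 0.708 for Angptl4 (limma). The design text gives no pairing of the wild type arrays. Those numbered 2 shared the Xist signal and had an r of 0.507, while those numbered 3 had an r of 0.048.

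How many members lay below 0 moved with single arrays. Between genotypes under vehicle the count was 26, and leaving out 1 array gave 22 to 27, so most members stayed below 0 there. For TCDD in human AHR cells the main count was 18, and leaving out 1 array gave 11 to 24. For TCDD in wild type cells it was 20, and leaving out 1 array gave 18 to 23. With a shared median, which moved the median of all genes to -0.08, it was 26. For the difference it was 10, 5 with a shared median, and 8 to 16 on leaving out 1 array. Between genotypes with TCDD it was 20, 12 without both wild type replicate 2 arrays, and 12 to 28 on leaving out 1 array. Averaged over genotypes it was 22, and 15 to 23 on leaving out 1 array, the lowest without wild type vehicle replicate 2. Dim members, chiefly Fgf21 and Acot3, were left out when the dimmest 40% of genes were removed.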

Other observations

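Among regulators beside PPARA, 14 listed and 13 measured, none was called in any comparison by limma. Ppard, a related nuclear receptor, had TCDD signals of 58.0, 71.9 and 103.3 in human AHR cells, against 105.5, 81.7 and 81.0 with vehicle. Its wild type signals were 81.8, 69.7 and 82.4 with TCDD, all above the 58.2, 50.8 and 44.8 with vehicle. The difference of the TCDD effects, human AHR minus wild type, was -0.67 (limma, adjusted p = 0.998), and human AHR minus wild type under vehicle was 0.64 (limma, adjusted p = 0.965). Klb, the co-receptor of FGF21, had 179, 164 and 202 with TCDD and 120.4, 158 and 126 with vehicle in human AHR cells, with no overlap between the groups. In wild type cells Klb had 146, 278 and 200.2 with TCDD and 158, 175 and 87.0 with vehicle, and the groups overlapped. Its averaged TCDD value was 0.46 (limma, adjusted p = 0.997). Of the 13 regulators, 3 lay all above and 1 all below with TCDD in human AHR cells, beside 3.34% and 3.85% of all genes. In wild type cells 1 lay all above and 0 all below, beside 6.18% and 2.82% of all genes. Esrra, a nuclear receptor of mitochondrial genes, had an averaged value of -0.38 (limma, adjusted p = 0.997).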
